A study of Mus musculus with 54 samples.

Results

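Chromatin accessibility was compared between 6 h and 0 h of 4-hydroxytamoxifen (4OHT) in Ebf1-KO fetal liver B-cell progenitors that carried an inducible Ebf1ER protein. The comparison takes every region of both deposited induction tables, 1172 regions in all, and 906 of them stand with the same position among the 4983 rows of the series' tables of accessible regions. By the names the authors gave the tables, the regions were bound by Ebf1 and Wt-enriched, a term that other names in the series apply to genes. They were split into 256 closed and 916 open in Ebf1-KO cells. Of the 54 labelled samples, 4 belong to this comparison, 2 at 6 h and 2 at 0 h.

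The cells of both times were labelled ProB, came from fetal livers of C57BL6/J mice and carried the Ebf1-KO genotype. They grew on OP9 stroma in medium that held interleukin-7 and the ligands of KIT and FLT3, and were infected with the retroviral vector pMiG-Ebf1ER. The column headers name GFP-positive cells, and GFP is the marker of this vector. At 6 h the cells had been in 4OHT for 6 h, and at 0 h they carried the same vector without that exposure. No sample of cells without Ebf1ER was labelled as treated with 4OHT, so 4OHT itself, time in culture and Ebf1ER cannot be told apart. The assignment of a region as bound by Ebf1 or Pax5 rests on peaks from the Abelson line 230-238, a transformed line of B-cell progenitors, and binding in the Ebf1ER cells was not measured.

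Ebf1 is a transcription factor needed for commitment to the B lineage, and without it progenitors stop before they express the surrogate light chain and the signalling chains of the pre-B-cell receptor. Fused to the hormone-binding domain of the oestrogen receptor, it stays inactive until 4OHT binds that domain, so addition of the drug marks the start of its activity. Ebf1 is known for binding closed as well as open chromatin at genes of this receptor and at genes of signalling and adhesion, and it works beside E2A, Pax5 and Foxo1.

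Each time was deposited as 1 column pooled from its 2 libraries, with 34710011 tags at 6 h and 47293654 at 0 h, so no spread between replicates could be measured and no test was possible. The header total of the 72 h column, 34710016, is nearly the same as that of 6 h; each column returned whole tags with its own total, and whether both are the true library totals could not be checked. Nothing in the labels says that the 2 libraries of a time came from separate animals or cultures. Values are tags in a region per 10000000 tags of the library (written as tags below), they are not divided by region length, and each interval in parentheses is an exact 95% interval that covers counting error only. The regions held 99043 tags at 6 h and 110896 at 0 h, with a median of 43 tags a region at both times. A region was counted as higher or lower when the ratio of the value plus 1 was at least 2-fold. In such bulk samples, a larger share of cells that opened a region and more accessible copies in each cell cannot be told apart.

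The sequences of 4 promoters that were at least 2-fold higher at 6 h are shown first, because they hold the genes of the surrogate light chain (Igll1) and of the Ig-alpha signalling chain (Cd79a), the B-cell gene Fam129c and Apbb1, an adaptor that binds the amyloid precursor protein. The promoters of Vpreb1 and Vpreb2, the partners of Igll1 in the surrogate light chain, are shown beside them because their regions were not among the higher ones. Each line is the run of 250 bases before the transcription start, 5′ to 3′ on the gene's strand, from RefSeq on GRCm38.p6. Capitals mark the letters CAGGTG (the E-box form that E2A binds), CCCNNGGG (the inner part of the Ebf1 motif) and CAAGGGA (an Ebf1 half-site), on either strand; Apbb1 held none of them.
Igll1: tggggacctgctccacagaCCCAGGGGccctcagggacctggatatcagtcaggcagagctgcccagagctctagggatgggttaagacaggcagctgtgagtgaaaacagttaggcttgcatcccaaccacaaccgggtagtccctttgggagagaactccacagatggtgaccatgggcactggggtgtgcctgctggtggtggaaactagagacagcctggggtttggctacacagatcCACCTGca
Cd79a: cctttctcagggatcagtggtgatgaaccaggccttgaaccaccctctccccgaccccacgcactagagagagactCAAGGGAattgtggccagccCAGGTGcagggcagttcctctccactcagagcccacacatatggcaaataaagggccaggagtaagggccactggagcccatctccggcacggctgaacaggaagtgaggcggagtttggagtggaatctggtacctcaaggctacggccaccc
Fam129c: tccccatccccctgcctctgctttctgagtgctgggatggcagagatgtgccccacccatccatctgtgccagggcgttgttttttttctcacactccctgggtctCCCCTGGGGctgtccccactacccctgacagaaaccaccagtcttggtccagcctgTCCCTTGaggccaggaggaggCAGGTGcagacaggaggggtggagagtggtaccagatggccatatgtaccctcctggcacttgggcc
Apbb1: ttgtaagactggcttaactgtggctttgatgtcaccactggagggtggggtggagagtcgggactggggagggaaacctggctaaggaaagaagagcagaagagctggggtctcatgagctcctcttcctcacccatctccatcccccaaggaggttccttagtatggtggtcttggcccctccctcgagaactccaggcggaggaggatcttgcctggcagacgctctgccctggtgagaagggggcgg
Vpreb1: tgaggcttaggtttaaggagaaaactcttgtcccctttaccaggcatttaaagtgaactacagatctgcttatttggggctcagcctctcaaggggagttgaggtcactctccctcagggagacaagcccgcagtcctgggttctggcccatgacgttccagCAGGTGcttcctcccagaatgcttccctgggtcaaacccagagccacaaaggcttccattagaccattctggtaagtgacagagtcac
Vpreb2: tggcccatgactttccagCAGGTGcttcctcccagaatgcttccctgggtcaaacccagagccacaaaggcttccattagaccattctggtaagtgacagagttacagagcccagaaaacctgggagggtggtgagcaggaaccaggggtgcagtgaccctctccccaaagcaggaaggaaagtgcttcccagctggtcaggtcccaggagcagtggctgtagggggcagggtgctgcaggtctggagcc

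These windows lie at chr16:16863986-16864235 on the minus strand for Igll1, chr7:24897247-24897496 on the plus strand for Cd79a, chr8:71597458-71597707 on the plus strand for Fam129c, which RefSeq lists as Niban3, and chr7:105568778-105569027 on the minus strand for Apbb1. Vpreb1 lies at chr16:16869256-16869505 on the minus strand and Vpreb2 at chr16:17980315-17980564 on the plus strand. The Vpreb1 and Vpreb2 windows share an identical run of 91 bases, so reads of these near-identical genes may have been split or dropped, and values at their promoters are uncertain.

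Of the 1172 regions, 70 were higher at 6 h (5.97%) and 7 were lower (0.597%). Of the 70 regions, 64 lay nearest to 63 named genes and 6 had no gene name, and no named gene other than Pik3c2b, a class II phosphoinositide kinase gene, had more than 1 of them. The excess of higher over lower regions depends on the scale. The median of all regions lay 0.26 above 0 on the log2 scale with library totals and at -0.01 after scaling by trimmed mean of M values (TMM), a shift that applies to every region. The TMM factors were computed from these same 1172 regions, so a median near 0 follows from the method. A gain shared by most of the regions and a difference of scale cannot be told apart in this way. Under TMM, 40 of the 70 regions remained at least 2-fold higher (40 of all regions, 3.41%), and 20 regions were lower (1.71%), with all 7 of the lower regions among them. That all 70 stayed above 0 under TMM was fixed by the size of the shift, near 0.29 on the log2 scale. That the 7 lower regions stayed lower was fixed by its direction. Among the 30 that fell under 2-fold there are the regions described below at Susd1, Slc17a9, 4632428C04Rik, Jakmip1, Gadd45g, Myh10, Gm20740, Pik3c2b (both), Smarca4, Cd5, Rras2, Ssc5d and Ifnlr1, and an unnamed one on chromosome 5. The interval of the tag ratio lay above 1 in 67 of the 70, against 28.1% of all regions, and under TMM in 63, against 8.87% of all. In the other direction, the interval lay below 1 in 6 of the 7 lower regions, against 1.71% of all, and under TMM in all 7, against 8.19% of all. The intervals come from the same tags that chose these regions, so these counts are a description only.

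**Figure D1:**
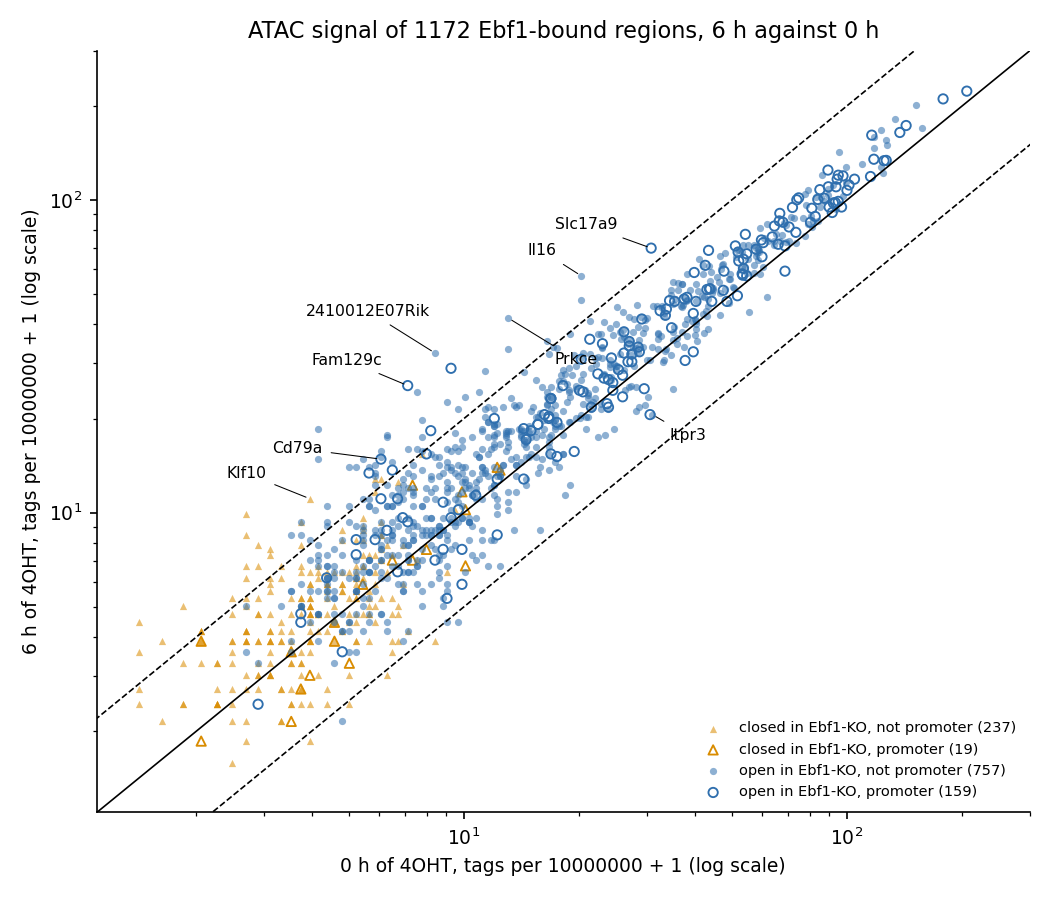
Tags per 10000000 plus 1 of each region at 6 h (vertical axis) against 0 h (horizontal axis), both on log scales, with triangles for the 256 regions closed and circles for the 916 regions open in Ebf1-KO, and open symbols for promoters. The solid line is equality and the dashed lines are 2-fold, and 70 regions lie on or above the upper one, against 7 on or below the lower one.

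Strong early responders were spread over introns, intergenic regions and promoters. An intergenic region 2680 bases upstream of 2410012E07Rik (chr14:70849759-70850747) held 31.4 tags (25.8–37.9) at 6 h and 7.40 (5.15–10.3) at 0 h. Its tag ratio of 4.24 (2.88–6.40) was the largest among named regions with at least 20 tags at 6 h or 0 h. The second region of that gene, closed in Ebf1-KO and 5276 bases upstream, held 2.88 tags at 6 h and 2.11 at 0 h, and the interval of that ratio covered 1 (0.509–3.65).

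In the first intron of Prkce, the gene of protein kinase C epsilon, a region (chr17:86209255-86210255) held 40.9 tags (34.5–48.2) at 6 h and 12.05 (9.13–15.6) at 0 h, a ratio of 3.39 (2.48–4.70). At the open Prkce promoter region (chr17:86166688-86168341) the values were 43.2 at 6 h and 31.5 at 0 h, a ratio of 1.37 (1.09–1.73). The intron and the promoter of the same gene therefore differed at 6 h by more than counting error, with the larger ratio in the intron. Intron 2 of Il16, which encodes a cytokine precursor, had 56.2 tags (48.6–64.6) at 6 h and 19.2 (15.5–23.6) at 0 h (chr7:83717250-83717987), a ratio of 2.92 (2.27–3.79). A further intergenic region on chromosome 7, 31639 bases from the start of Mesdc1 and close to Il16 (chr7:83851994-83853411), held 32.3 tags at 6 h and 12.05 at 0 h.

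Of metabolic genes, intron 16 of Sardh, which encodes a mitochondrial sarcosine dehydrogenase, held 23.3 tags at 6 h and 6.55 at 0 h, and intron 7 of Alpl, the gene of an alkaline phosphatase, held 21.6 at 6 h and 8.03 at 0 h. Their ratios were 3.56 (2.33–5.57) for Sardh and 2.69 (1.80–4.08) for Alpl. The intergenic region of Susd1 held 22.5 tags at 6 h and 9.09 at 0 h, and an intron of the non-coding gene 4632428C04Rik held 23.3 at 6 h and 9.94 at 0 h. An open intergenic region that the authors' annotation gives no gene name (chr5:149320474-149321429) held 46.96 tags at 6 h and 19.2 at 0 h, a ratio of 2.44 (1.88–3.19).

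The largest log2 ratio of all regions, 2.15, was at a region whose nearest start, 82537 bases away, is that of Derl1, a gene of endoplasmic reticulum quality control; the region itself lies in an intron of the transcript NM_199449 (chr15:57809530-57810232). This region held 17.6 tags at 6 h and 3.17 at 0 h, a ratio of 5.54 (3.11–10.5). Smarca4, which encodes the BRG1 subunit of the BAF chromatin remodelling complex, was among the higher genes through its first intron (chr9:21624918-21626233), with 12.1 tags at 6 h and 4.86 at 0 h, a ratio of 2.49 (1.46–4.33). Phosphodiesterase gene Pde8a had 16.7 tags at 6 h and 5.29 at 0 h at a region 17007 bases upstream of its start, a ratio of 3.16 (1.95–5.27).

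**Figure D2:**
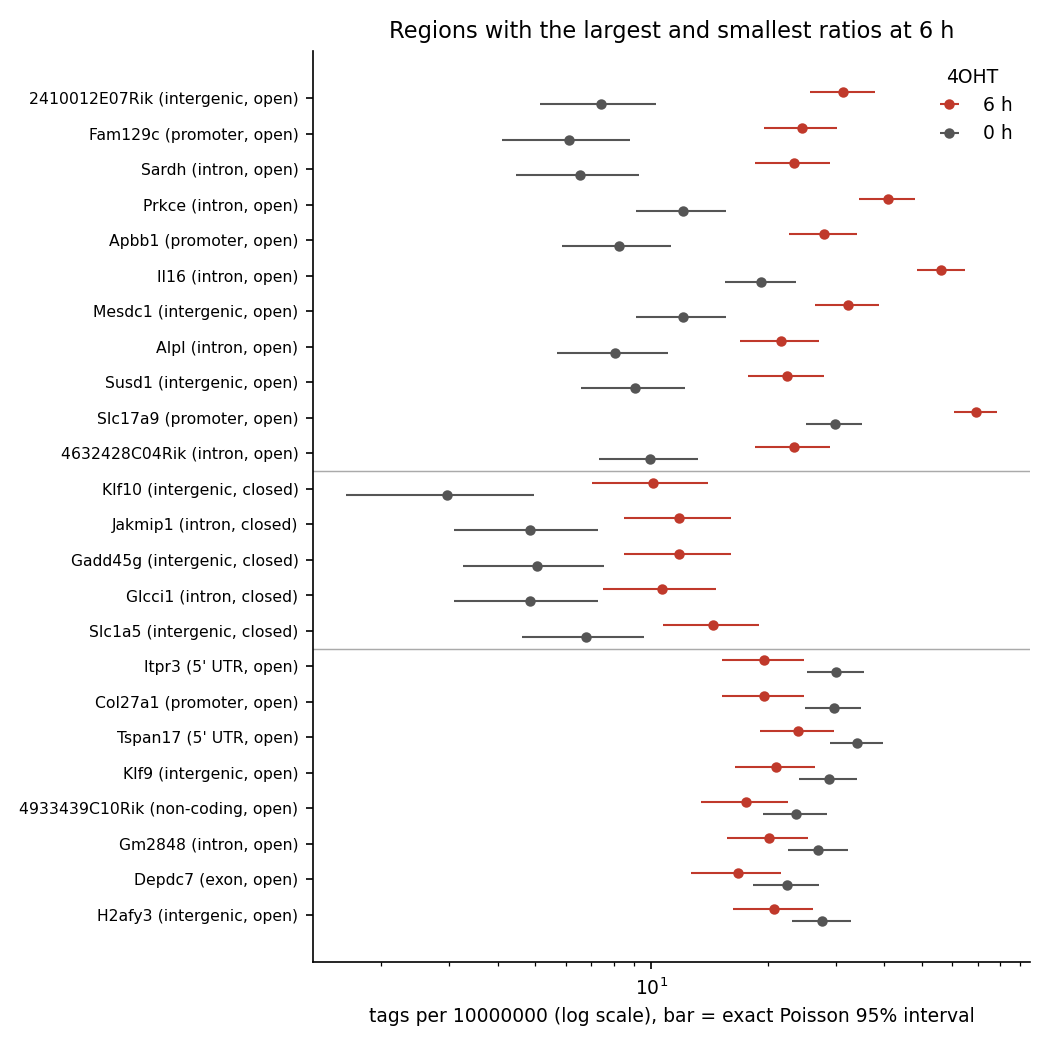
Tags per 10000000 on a log axis at 6 h (red) and 0 h (grey) with exact Poisson 95% intervals, for regions among the 12 with the largest ratios, the 5 closed regions with the largest ratios and the 8 regions with the smallest ratios. The intervals of both times do not overlap in any of the top set shown, and in the bottom 8 they overlap in all except Itpr3 and Col27a1.

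Regions that were lower held little signal. The 7 lower regions held between 0.86 and 3.46 tags at 6 h and between 2.96 and 8.67 at 0 h, so each rests on few tags. Among them were introns of Nedd9 (a scaffold of integrin signalling), Svopl, Csf2rb2 (a beta subunit of the mouse interleukin-3 receptor), Depdc7 and Mad1l1 (a spindle checkpoint gene), and an intergenic region nearest H2afy3. The Mad1l1 region held 3.46 tags at 6 h and 8.67 at 0 h, a ratio of 0.40 (0.19–0.77), and the Nedd9 region held 1.44 at 6 h and 4.02 at 0 h, a ratio of 0.36 (0.10–0.99). At Csf2rb2, with 0.86 tags at 6 h and 2.96 at 0 h, the interval of the ratio (0.05–1.05) reached 1.

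Among named regions with at least 20 tags at either time, no region was 2-fold lower at 6 h. The smallest ratios were at the start of Itpr3, a calcium channel of the endoplasmic reticulum, with 19.6 tags at 6 h and 30.03 at 0 h, a ratio of 0.65 (0.48–0.88), and at the promoter of the collagen gene Col27a1, with 19.6 at 6 h and 29.6 at 0 h, a ratio of 0.66 (0.49–0.89). Tspan17 (23.9 tags at 6 h and 34.04 at 0 h) and Klf9 (21.03 at 6 h and 28.8 at 0 h) came next, with intervals of the ratio below 1 in both. For 4933439C10Rik, Gm2848, Depdc7 (its first exon) and H2afy3 (605075 bases away) the intervals covered 1.

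By region class, the shares of higher regions set against the 5.97% of all regions were 8.59% in the closed class (22 regions, with 4 lower) and 5.24% in the open class (48 regions, with 3 lower). Under TMM the closed class had 14 higher and 9 lower regions and the open class 26 higher and 11 lower. The closed regions held a median of 3.75 tags at 6 h and 2.96 at 0 h, and the open regions held 17.6 at 6 h and 13.6 at 0 h. The 22 higher closed regions held a median of 5.76 tags at 6 h and 1.69 at 0 h, so their ratios rest on few tags. Summed over the class, closed regions had 1063 tags per 10000000 at 6 h and 842 at 0 h, a ratio of 1.26 (1.21–1.32), and open regions had 27471 at 6 h and 22606 at 0 h, a ratio of 1.22 (1.20–1.23). The intervals of both classes overlap, and they do not cover differences between cultures.

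The closed regions with at least 10 tags that had the largest ratios lay outside promoters. Downstream of Klf10, which encodes a Krüppel-like factor, a region (chr15:38280174-38280854) held 10.1 tags (7.02–14.02) at 6 h and 2.96 (1.62–4.97) at 0 h, a ratio of 3.41 (1.79–6.85). An intron of Jakmip1 held 11.8 tags at 6 h and 4.86 at 0 h, and an intergenic region 80412 bases from Gadd45g, a stress-induced growth arrest gene, held 11.8 at 6 h and 5.07 at 0 h. Just outside 2-fold on the scale of value plus 1 were Slc1a5, a neutral amino acid transporter gene (14.4 tags at 6 h and 6.77 at 0 h), and Glcci1 (10.7 at 6 h and 4.86 at 0 h), both at a log2 ratio of 0.99. Rras2, an open region, was just inside it, at 1.01 (14.7 tags at 6 h and 6.77 at 0 h).

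Several closed regions that were higher held few tags at either time. A region 12943 bases upstream of the kinase gene Akt2 held 8.35 tags at 6 h and 2.75 at 0 h, and an intron of Mtss1 held 6.91 at 6 h and 1.90 at 0 h. An intron of Myh10, the gene of a non-muscle myosin heavy chain, held 6.91 tags at 6 h and 2.75 at 0 h, and the only intron of the cannabinoid receptor gene Cnr2 held 6.34 at 6 h and 2.11 at 0 h. At Rragd, a GTPase gene of amino acid sensing, 2.88 tags at 6 h stood against 0.63 at 0 h, and the interval of that ratio ran over a wide range (1.17–25.7).

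Promoters held a smaller share of higher regions than the rest. Of 178 promoter regions 7 were higher (3.93%) and 0 lower, and of 994 other regions 63 were higher (6.34%) and 7 lower. Under TMM 4 promoters were higher and 2 lower, and 36 other regions were higher and 18 lower. The median log2 ratio was 0.24 at promoters and 0.26 elsewhere, and under TMM -0.04 at promoters and 0.01 elsewhere. The promoter share stands below the 5.97% of all regions, and promoters also held more signal, with a median of 31.25 tags at 6 h and 26.01 at 0 h, against 10.7 at 6 h and 8.03 at 0 h elsewhere.

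The 19 closed promoters had no higher and no lower region, where 8.59% of the closed class were higher, and they had a median log2 ratio of -0.04 (-0.27 under TMM), against 0.27 (0.05 under TMM) at the 237 closed regions outside promoters. Their summed signal was 106 tags at 6 h and 103 at 0 h, a ratio of 1.03 (0.893–1.18), and outside promoters it was 957 at 6 h and 739 at 0 h, a ratio of 1.30 (1.24–1.36). These intervals of counting error do not overlap, with the higher ratio outside promoters. Closed promoters also started higher, at a median of 7.41 tags per kb at 0 h against 4.35 outside promoters. The 84 closed regions in the second of 4 groups by 0 h tags per kb, promoters or not, had a median of 0.03 (-0.20 under TMM). Their summed ratio was 1.06 (0.984–1.14). The 0 h value is part of both that grouping and the ratio, so the parts of promoter status and starting level were not tested. In the open class the summed ratio was 1.18 (1.17–1.20) at 159 promoters, which held all 7 higher promoter regions, and 1.23 (1.22–1.24) at 757 other regions, again with intervals that do not overlap.

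**Figure D3:**
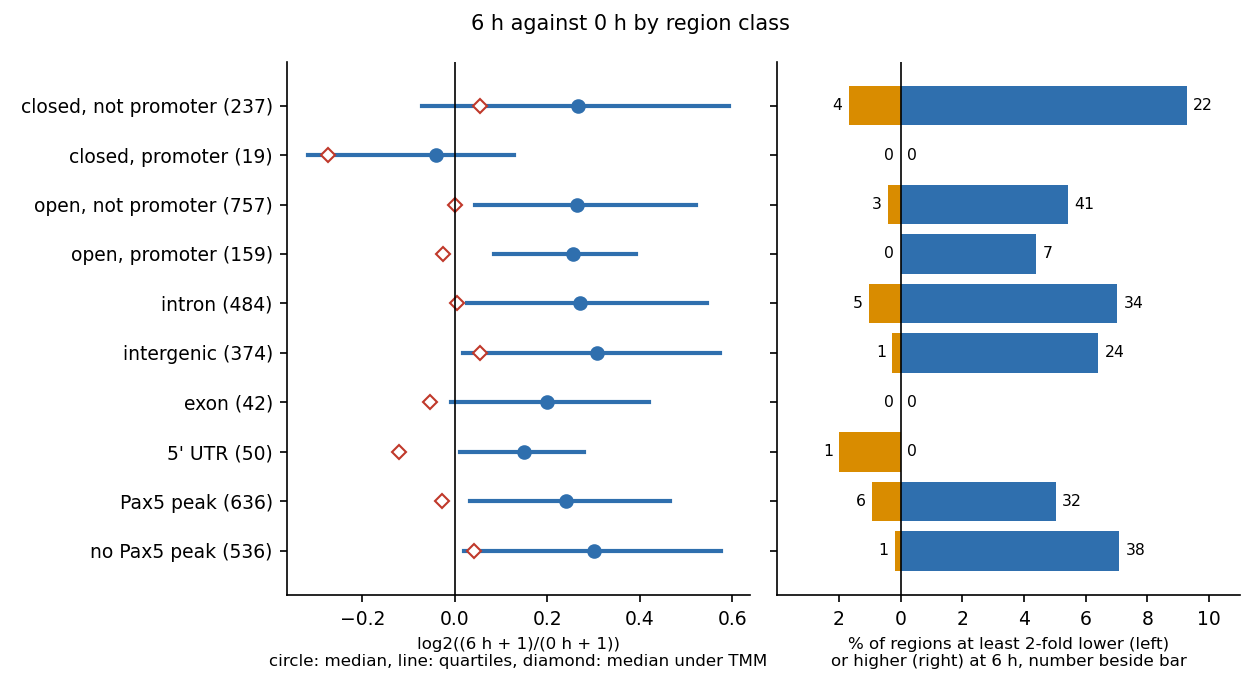
Left, the median log2 ratio of 6 h over 0 h (circle) with its quartiles (line) and the median under TMM (diamond) for each class of region. Right, the percent of regions at least 2-fold higher (blue, to the right) or lower (orange, to the left), with their number; closed promoters have 0 of 19 in either direction and closed regions outside promoters have 22 and 4 of 237.

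By distance to the transcription start, regions near a start held the smallest share. Within 1000 bases of a start 10 of 360 regions were higher (2.78%), between 1000 and 10000 bases 22 of 338 (6.51%), between 10000 and 50000 bases 30 of 355 (8.45%), and beyond 50000 bases 8 of 119 (6.72%). Under TMM the excess of higher over lower regions turned at both ends, with 4 higher and 5 lower within 1000 bases and 2 higher and 4 lower beyond 50000, while the groups between had 14 higher and 4 lower and 20 higher and 7 lower. Regions in the first exon annotated as 5' UTR had 0 higher and 1 lower of 50, with a median of 0.15 (-0.12 under TMM), and exons had 0 of 42 in either direction. Introns had 34 higher and 5 lower of 484 and intergenic regions 24 higher and 1 lower of 374, at medians of 0.27 and 0.31 (0.01 and 0.05 under TMM). Starts of genes held more signal than distant regions at 0 h, so distance and starting level move together and their parts in these shares were not tested.

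Starting level itself went with the call. Split by 0 h tags per kb into 4 groups of 293, the lowest group had 36 higher regions (12.3%), the second 28 (9.56%), the third 4 (1.37%) and the highest 2 (0.683%). The 0 h value is part of both the grouping and the ratio, so these shares are a description. At promoters, 6 of the 7 higher regions fell in the second of these groups, which held 26 promoters (23.1%), against 22 of 267 other regions there (8.24%). None of the 16 promoters of the lowest group was higher.

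Regions with a Pax5 peak in the Abelson line had 32 higher and 6 lower of 636 (5.03% higher), and those without had 38 higher and 1 lower of 536 (7.09%). Medians were 0.24 with and 0.30 without a Pax5 peak (-0.03 and 0.04 under TMM). Regions with the peak were longer, at a median of 1110.5 bases against 816.5, and held more signal at 0 h.

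Among the 7 higher promoters were those of Fam129c, Apbb1, Cd79a, Igll1, Slc17a9 and Ifnlr1. Windows of 4 of them are printed above. The Fam129c region (chr8:71597229-71598211), which holds the printed window with 2 overlapping CCCNNGGG matches, held 24.5 tags (19.6–30.3) at 6 h and 6.13 (4.11–8.81) at 0 h, a ratio of 3.99 (2.59–6.32). A second Fam129c promoter region just upstream (chr8:71596481-71597187) held 18.1 tags at 6 h and 14.6 at 0 h, a ratio whose interval covered 1 (0.87–1.78). The 2 neighbouring regions thus differed, and the higher one was the region over the start.

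The Apbb1 promoter region (chr7:105568490-105569791) held 27.95 tags (22.7–34.1) at 6 h and 8.25 (5.86–11.3) at 0 h, a ratio of 3.39 (2.31–5.05). Cd79a (chr7:24896982-24897767) held 13.8 tags (10.2–18.3) at 6 h and 5.07 (3.25–7.55) at 0 h, a ratio of 2.73 (1.64–4.65). Igll1 (chr16:16863729-16864437) held 12.4 tags (8.97–16.7) at 6 h and 4.65 (2.92–7.04) at 0 h, a ratio of 2.66 (1.56–4.67). In all 3 promoters the intervals of both times stayed apart.

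Slc17a9, the gene of the vesicular nucleotide transporter, had the strongest signal of the 7 (chr2:180724922-180725653), with 69.1 tags (60.7–78.5) at 6 h and 29.8 (25.1–35.2) at 0 h, a ratio of 2.32 (1.88–2.88) and a log2 ratio of 0.91 under TMM. Ifnlr1, which encodes a subunit of the interferon lambda receptor, held 17.3 tags at 6 h and 7.19 at 0 h, a ratio of 2.40 (1.55–3.78).

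Of the 178 promoter regions, 126 overlapped a RefSeq window, which gave 125 distinct windows, 5 of them at higher regions. The full palindromic Ebf1 motif (CCCNNGGG with a T before and an A after it) was in 4.0% of the 125 windows and in 0.780% of 32817 distinct RefSeq windows, and in 0 of the 5 at higher regions. Its inner part CCCNNGGG was in 31.2% of the 125 and 11.8% of all, and in Igll1 and Fam129c of the 5. The E-box CAGGTG was in 21.6% of the 125 and 17.2% of all, and in Igll1 (8 bases before the start), Fam129c (67 bases) and Cd79a (154 bases) of the 5. The half-site CAAGGGA was in 3.2% of the 125 and 4.21% of all, and in Cd79a (174 bases) and Fam129c (88 bases) of the 5. CAGCTG was in 12.8% and 13.0%, the Ets core GGAAGT in 20.8% and 19.7%, the Runx core TGTGGT in 11.2% and 14.0%, and any E-box (CANNTG, which includes both named forms) in 52.8% and 66.2%. Every motif was searched on both strands, CCCNNGGG is part of the full motif, and Ifnlr1 and Apbb1 matched none of the 8 motifs in these windows.

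By gene, tags were summed over all regions with the same nearest start. Of 799 named genes, 31 were at least 2-fold higher (3.88%) and 1 was lower (Csf2rb2, 0.125%). Of these genes 568 had 1 region, so their sum is that region. Among genes with 2 or more regions that passed, 2410012E07Rik held 34.3 tags at 6 h and 9.51 at 0 h, Derl1 21.9 at 6 h and 6.76 at 0 h, and Fam129c 42.6 at 6 h and 20.7 at 0 h. Tha1, a threonine aldolase gene, held 33.7 tags at 6 h and 14.8 at 0 h over 2 regions.

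Of 28 genes with at least 4 regions none was 2-fold higher or lower, which is near the 3.88% and 0.125% of all genes. The median log2 ratio of their sums was 0.38, against 0.26 for all genes (0.10 and -0.01 under TMM). The highest ratios were at Ppt1, a lysosomal thioesterase gene, with 74.6 tags at 6 h and 46.5 at 0 h, a ratio of 1.60 (1.34–1.93), and at the ankyrin gene Ank2, with 44.4 at 6 h and 28.97 at 0 h. Cplx2 (38.3 tags at 6 h and 25.2 at 0 h) and Gngt2 (53.6 at 6 h and 35.7 at 0 h) were also among the highest. At the other end Plekhm3 held 35.4 tags at 6 h and 38.5 at 0 h, a ratio of 0.92 (0.73–1.16), and Chst3 held 30.25 at 6 h and 30.4 at 0 h. Lef1, Ccnd3 and Plxna1 had ratios between 1.05 and 1.13 whose intervals all covered 1.

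In 71 genes with a promoter region and another region, the other regions had the larger ratio in 38. Vpreb2 was one, with 36.3 tags at 6 h and 17.97 at 0 h at an intergenic region 11103 bases upstream (chr16:17968914-17970011), a ratio of 2.02 (1.52–2.69), and 5.47 at 6 h and 5.71 at 0 h at its promoter. The pair of higher regions of Pik3c2b lay side by side in 1 intron, with 7.49 and 7.20 tags at 6 h against 2.75 and 2.96 at 0 h.

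Genes of the pre-B-cell receptor and its signalling stood at a higher median than all regions. Of the 27 listed genes, 14 had regions, 20 regions in all. Of these regions 3 were higher (Cd79a and Igll1, described above, among them) and 0 lower, beside 5.97% and 0.597% of all regions. At this number these counts cannot be set apart from the shares of all regions. Their median log2 ratio was 0.52, against 0.26 for all regions, and 0.24 against -0.01 under TMM. The interval of the tag ratio lay above 1 in 10 of the 20, against 28.1% of all regions. Under TMM fewer did so, as the intervals at Dok3 and Fcrla, among others, then covered 1. Of all regions, 8.87% lay above 1 under TMM. The list was chosen with earlier results of these data known.

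Src-family kinase gene Blk had 4 regions. Its distal intron region (chr14:63377132-63377826) held 53.3 tags at 6 h and 35.1 at 0 h, a ratio of 1.52 (1.22–1.88). The intron region at 6058 bases held 21.3 at 6 h and 20.3 at 0 h, with an interval that covered 1 (0.765–1.44). Promoters of the adaptor genes Dok3 and Pik3ap1 held 40.6 and 31.4 tags at 6 h against 28.1 and 25.2 at 0 h. Fcrla, an Fc receptor-like gene, held 11.8 tags at 6 h and 5.92 at 0 h and stood just under the 2-fold count at a log2 ratio of 0.89.

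Regions of the list that were closed in Ebf1-KO held few tags. Blnk, the adaptor gene of the receptor, held 1.73 tags at 6 h and 2.75 at 0 h, and Cd79b held 1.44 at 6 h and 1.27 at 0 h. The Vpreb1 promoter region held 1.15 tags (4 tags in the pooled library) at 6 h and 2.54 at 0 h, a ratio of 0.45 (0.11–1.50). A difference was not detectable at this depth for any of these genes.

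Transcription factor genes of the B lineage were mixed. Of 24 listed genes 11 had regions, 18 in all, with 1 higher and 0 lower, near the 5.97% of all regions, and their median of 0.20 (-0.08 under TMM) lay below that of all regions. The higher one was in the first intron of Pou2f2 (chr7:25129414-25130291), the gene of the octamer factor Oct-2, with 16.4 tags at 6 h and 5.29 at 0 h, a ratio of 3.11 (1.91–5.19). Tcf3, which encodes E2A, had 22.2 tags at 6 h and 12.3 at 0 h at its upstream region (chr10:80442655-80443733), a ratio of 1.81 (1.27–2.59), and 4.61 at 6 h and 6.77 at 0 h in its intron. Both Foxo1 regions, 175850 and 190244 bases from the start, had intervals that covered 1, with 17.9 and 12.4 tags at 6 h against 13.7 and 7.82 at 0 h.

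At the endogenous Ebf1 gene a region 5126 bases upstream held 12.4 tags at 6 h and 9.52 at 0 h, a ratio of 1.30 (0.84–2.02). Spib, an Ets factor gene, held 63.7 tags at 6 h and 54.1 at 0 h, and Tcf4 held 38.03 at 6 h and 33.8 at 0 h at its promoter; both log2 ratios were above 0 with library totals and below 0 under TMM. Lef1 had 4 regions, from 22.5 tags at 6 h and 15.9 at 0 h upstream to 6.34 at 6 h and 9.52 at 0 h in an intron, where the interval lay below 1 under TMM only. Pou2af1, the gene of the Oct coactivator, held 6.05 tags at 6 h and 7.40 at 0 h at its promoter.

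Recombination genes were represented by Rag2 (6.91 tags at 6 h and 5.92 at 0 h) and Dntt (5.76 at 6 h and 4.23 at 0 h), both closed in Ebf1-KO, and both intervals covered 1. Of 19 receptor and surface antigen genes, 7 had 11 regions with 1 higher, which at this number cannot be set apart from the 5.97% of all regions, at a median of 0.43 (0.20 under TMM). The higher one was upstream of Il2ra (chr2:11629438-11630292), which encodes the interleukin-2 receptor alpha chain CD25 and is known as a marker of later precursor B cells. It held 3.46 tags at 6 h and 0.42 at 0 h, which rests on few tags, and the ratio of 8.18 has an interval from 1.82 to 75.2. Cd24a, a surface antigen of early B cells, held 60.5 tags at 6 h and 42.7 at 0 h, a ratio of 1.42 (1.16–1.73), and Bst1 held 70.6 at 6 h and 54.1 at 0 h.

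Cell cycle and survival genes had 7 regions of 4 of 15 listed genes, with 0 higher and 0 lower. At this number these counts cannot be set apart from the 5.97% and 0.597% of all regions. Their median was -0.12 (-0.40 under TMM), against 0.26 (-0.01 under TMM) for all regions. The promoter of the inhibitor gene Cdkn2c held 58.2 tags at 6 h and 67.9 at 0 h, a ratio of 0.86 (0.72–1.03). The promoter of Bcl2l1, an anti-apoptotic gene, held 93.9 tags at 6 h and 88.8 at 0 h. Cyclin D3 gene Ccnd3 had a distal intron region with 31.1 tags at 6 h and 20.3 at 0 h, a ratio of 1.53 (1.15–2.04), beside 2 regions at its starts with 39.2 and 29.4 at 6 h against 39.3 and 32.1 at 0 h.

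In the list of small GTPase and protein kinase C signalling, 4 of 18 genes had 11 regions with 1 higher (Prkce), beside 5.97% of all regions, and a median of 0.34 (0.13 under TMM). An upstream region of the Ras activator gene Rasgrp1 held 45.2 tags at 6 h and 27.3 at 0 h, a ratio of 1.66 (1.31–2.11). In the list of Notch pathway and Hes/Hey factors, 3 of 12 genes had 4 regions with 1 higher, at a median of 0.45 (0.20 under TMM). Neither count of 1 can be set apart from the share of all regions. The higher one was upstream of Heyl, which encodes a repressor of the Hey family (chr4:123228091-123228839), with 13.8 tags at 6 h and 4.44 at 0 h, a ratio of 3.11 (1.83–5.48), and Hes5 held 53.6 at 6 h and 34.04 at 0 h.

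Markers of other cells could hardly be read from these regions. Of 13 T-lineage genes, only Cd5 had a region, which was higher, with 11.2 tags at 6 h and 4.86 at 0 h, a ratio of 2.31 (1.35–4.05). Under TMM its log2 ratio was 0.82, below 2-fold. The lists of 12 myeloid, 11 natural killer and innate lymphoid, 8 erythroid and 10 stromal genes had no region in these tables, so the share of such cells at either time was not tested.

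The later columns show whether the early values lasted. At the 70 higher regions the medians at 0, 6, 24 and 72 h were 4.65, 12.5, 16.5 and 16.9 tags, and at the 1095 regions within 2-fold they were 10.15, 12.4, 15.3 and 16.4. At the 7 lower regions they were 5.29, 2.02, 2.46 and 4.61. All 70 lay above their 0 h value at 24 h and 69 did at 72 h, against 85.8% and 86.8% of all regions; these counts share the 0 h column with the choice of the regions. Of the 70, 52 were higher at 24 h than at 6 h (74.3%, against 75.5% of all regions) and 36 were higher at 72 h than at 24 h (51.4%, against 57.0% of all), so a further rise was no more frequent among them. These counts use library totals, and the TMM factors were 0.78, 0.95, 1.15 and 1.17 at 0, 6, 24 and 72 h.

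Values of single regions ran differently over the 4 times, read here as point values with library totals. Apbb1 (8.25, 27.95, 55.2 and 60.8 tags at the 4 times) and Pde8a (5.29, 16.7, 26.8 and 37.7) were higher at each later time, as were Derl1 (3.17, 17.6, 27.04 and 38.03) and Smarca4 (4.86, 12.1, 16.7 and 25.6). In Cd5 (4.86, 11.2, 11.2 and 9.80) and Ank2 (4.02, 12.96, 12.02 and 10.95) the values after 6 h stayed near the 6 h value. At Ifnlr1 (7.19, 17.3, 12.3 and 14.7), Scd1 (2.54, 7.49, 5.19 and 4.03), which encodes a fatty acid desaturase, and Il2ra (0.42, 3.46, 4.10 and 1.15) the last value lay below that at 6 h.

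**Figure D4:**
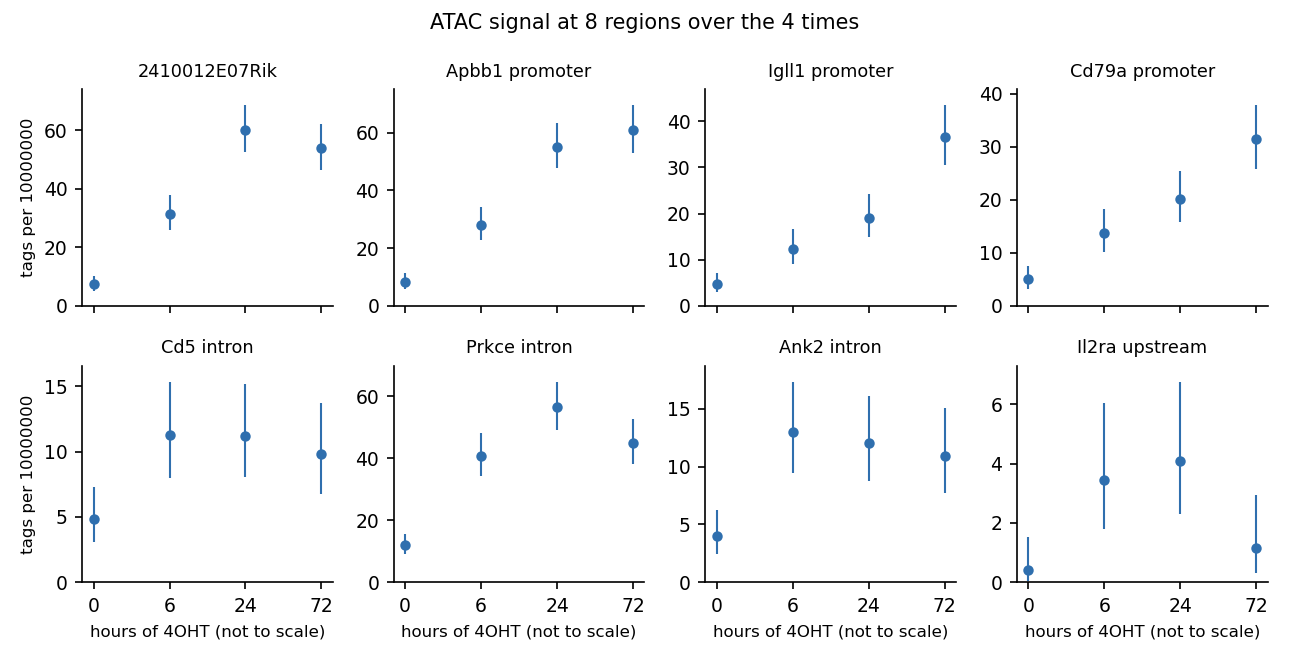
Tags per 10000000 at 0, 6, 24 and 72 h of 4OHT (axis not to scale) with exact Poisson 95% intervals at 8 regions. Values use library totals. Igll1 and Cd79a are higher at each later time, and Cd5 and Ank2 stay near their 6 h values of 11.2 and 12.96. Il2ra stands at 1.15 tags at 72 h, against 3.46 at 6 h and 0.42 at 0 h, all of which rest on few tags.

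Other readouts of the same regions come from Ebf1-KO and Wt progenitors without Ebf1ER, and for accessibility from E2A-KO and Wt progenitors. Each has 1 column a genotype, which pools libraries for H3K4me3, H3K27me3 and accessibility. No spread between replicates could be measured and no test was made. Within the open class, the 48 higher regions had lower median ratios of knockout to Wt than the 865 regions within 2-fold for 7 of 8 readouts. Marks and E2A-KO accessibility had values at 46 and 697 of these regions. Median log2 ratios of Ebf1-KO over Wt were -0.83 against -0.07 for the remodeller BRG1, -1.13 against -0.38 for the acetyltransferase EP300 and -1.90 against -0.83 for RNA polymerase II (PolII). The mark H3K4me2 stood at -1.23 against -0.22, H3K27ac, a mark of active elements, at -1.69 against -0.84, H3K4me3 at -1.06 against 0.04, and accessibility in E2A-KO over Wt at -1.80 against -1.13. H3K27me3 went the other way, at 0.24 against -0.01. In the closed class the higher regions and the others lay close, at -1.44 against -1.43 for BRG1 and -2.23 against -2.33 for PolII, EP300 went the other way at -1.001 against -1.54, and E2A-KO accessibility stood at -2.27 against -1.76.

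**Figure D5:**
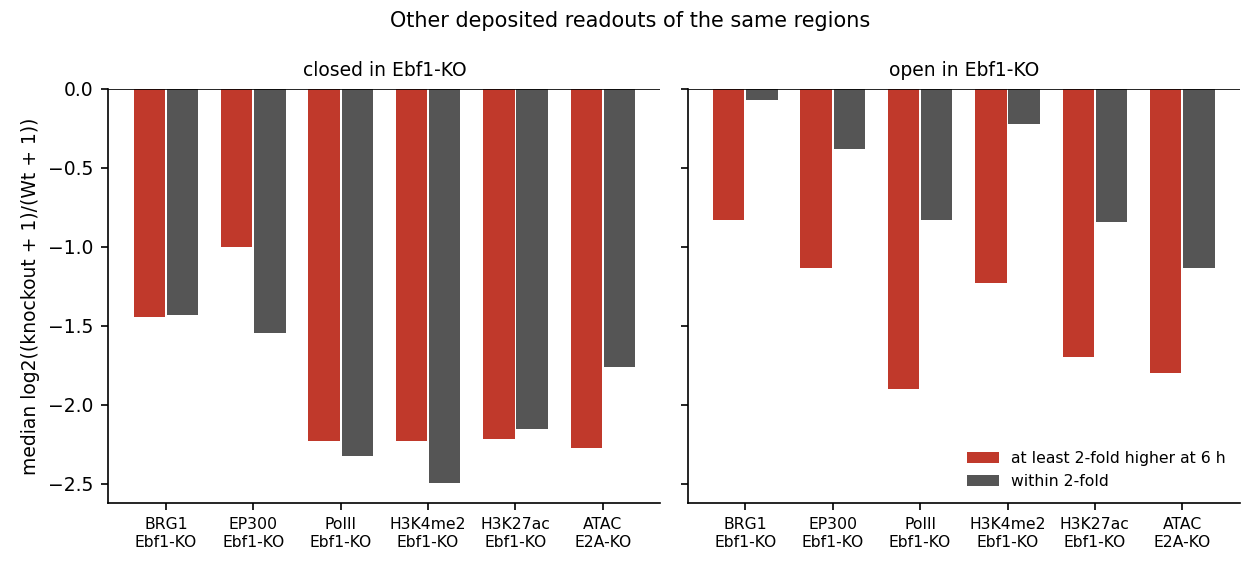
Median log2 ratio of knockout over Wt (value plus 1) for 6 of the 8 readouts at regions at least 2-fold higher at 6 h (red) and within 2-fold (grey), for regions closed (left) and open (right) in Ebf1-KO. In open regions all 6 red bars reach further below 0, such as -1.90 against -0.83 for PolII.

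The higher regions also had a lower 0 h level, and within groups of like level the differences were mixed. In the open regions of the lowest 0 h group (17 higher and 114 others, 16 and 100 with marks and E2A-KO accessibility), the higher regions stood lower for EP300 (-2.26 against -1.20), PolII (-3.25 against -1.89), E2A-KO accessibility (-2.58 against -1.74) and H3K27ac (-2.16 against -2.07). In that group BRG1 was at -1.29 against -1.31, H3K4me2 at -2.11 against -2.42 and H3K4me3 at -1.58 against -1.68. In the second group (25 and 182, 24 and 156 with marks and E2A-KO accessibility), the higher regions stood lower for BRG1 (-0.88 against -0.44), H3K27ac (-1.68 against -1.41) and H3K4me3 (-1.25 against -0.996). PolII was level there at -1.45 against -1.44, and the higher regions stood above the others for EP300 (-0.77 against -0.98), H3K4me2 (-1.04 against -1.65) and E2A-KO accessibility (-1.46 against -1.60). These groups by 0 h level were added after the data were seen.

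At the Igll1 promoter, EP300 was 3.45 tags in Ebf1-KO and 82.02 in Wt, PolII 3.76 in Ebf1-KO and 141 in Wt, and H3K4me3, a promoter mark, 4.49 in Ebf1-KO and 63.7 in Wt. Cd79a was alike, with PolII at 3.76 in Ebf1-KO and 63.2 in Wt and H3K4me3 at 3.01 in Ebf1-KO and 93.96 in Wt. The Apbb1 promoter held 13.8 tags of the polycomb mark H3K27me3 in Ebf1-KO and 3.15 in Wt, and 0.47 of EP300 in Ebf1-KO against 12.4 in Wt. At these 3 promoters all of these factors and H3K4me3 were lower in Ebf1-KO, and H3K27me3 was higher at Apbb1.

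Other higher regions carried the factors without Ebf1. The Prkce intron held 27.9 tags of BRG1 and 41.4 of EP300 in Ebf1-KO, against 26.9 and 37.7 in Wt; its PolII was 23.3 in Ebf1-KO and 32.8 in Wt. Il16 held 31.8 of PolII in Ebf1-KO and 30.4 in Wt. The Pou2f2 intron held 17.4 of BRG1 in Ebf1-KO and 7.00 in Wt, and the Slc17a9 promoter held 89.8 of H3K4me3 in Ebf1-KO and 85.7 in Wt. Of the 70 higher regions, Ebf1-KO was at or above Wt in 16 for BRG1 (22.9%, against 38.6% of all regions), 19 for EP300 (27.1%, against 33.1%) and 6 for PolII (8.57%, against 18.1%). In 4 of them, those nearest Rras2, Ssc5d and Scd1 included, this held for all 3 factors (5.71%, against 9.73% of all regions), and none of the 4 had a Fli1 peak, as in 56 of the 114 such regions overall. At Scd1 EP300 was 13.3 in Ebf1-KO and 6.81 in Wt, while accessibility in the Ebf1ER cells was 7.49 at 6 h and 2.54 at 0 h.

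Peaks of other factors did not set the higher regions apart by share. Fli1, an Ets factor, had a Wt peak at 45 of the 70 (64.3%) against 65.7% of all 1172 regions, and the zinc finger factor Ikzf1 at 19 (27.1%) against 27.6%. All 1172 regions were accessible in the Abelson line.

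Promoter contacts were read from the deposited H3K4me3 PLAC-seq list of the Abelson line, which links pairs of genomic bins and so cannot separate regions of 1 bin. Of the 70 higher regions 60 had a listed contact (85.7%, against 91.0% of all regions), 43 reached a promoter (61.4%, against 60.0% of all) and 14 the promoter of their own nearest gene (20.0%, against 13.1%). Own-gene contacts joined the Prkce intron to its promoter with 84 deposited read pairs (q = 4.29e-08), the Smarca4 intron with 90 (q = 2.76e-08) and the Scd1 region with 133 (q = 1.74e-23).

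Several regions reached the promoter of another gene than the nearest. The closed region nearest Gm20740 (chr15:63636304-63637505; 5.76 tags at 6 h and 2.33 at 0 h) was linked to Myc with 21 deposited read pairs (q = 2.47e-14). The 4632428C04Rik region was linked to Hes1 with 23 and the Derl1 region to Zhx2 with 17. The region nearest Tha1 was linked to Socs3, a cytokine signalling inhibitor gene, with 38, the Cnr2 intron to E2f2 with 17, and the Il2ra region to Il15ra with 36. Contacts in Ebf1ER cells at 6 or 0 h and expression of the linked genes were not analysed here.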

How the data were processed

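ATAC-seq of Ebf1-KO fetal liver progenitors with Ebf1ER was analysed at 6 h and 0 h of 4OHT, with 24 h and 72 h beside them. Per the file headers, the authors counted tags per region with HOMER and scaled the signal values to 10000000 tags per library. Trim Galore 0.6.4, Bowtie2 2.3.5 and HOMER 4.10 stand in the submitters' processing notes, with the build mm10 (GRCm38.p5); HiC-Pro 2.11.1 stands there too. Value times library total over 10000000 returned whole tags within 0.1 tag in 100% of regions. The deposited PLAC-seq list holds contact counts and q-values, and each deposited list of Fli1 or Ikzf1 peaks has a score from the authors' caller, which was not used. The Wt ATAC column is a pool that its name gives as 6 libraries.

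Each column pools 2 libraries, so the planned limma fit could not be made. The log2 ratio of value plus 1, exact Poisson intervals and exact conditional intervals of tag ratios were computed in Python 3.11.15 with SciPy 1.17.1 and pandas 2.3.3. The log2 ratio and the intervals of tag ratios were checked on simulated data. TMM factors (edgeR 4.0.16: 0.951 at 6 h, 0.779 at 0 h) were computed in R 4.3.3 from the tags of the same 1172 regions and were not part of that check. PCR duplicates are not independent molecules, and intervals cover counting error only. Other tables were joined by exact position (1172 regions for factors, 906 for marks and E2A-KO accessibility). A region's gene is the nearest start in the authors' annotation, and 36 regions had no name. Of the 1172 regions, 10 pairs overlap between the tables.

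Members and gene lists were chosen with earlier results of these data known. Named are the 12 regions with the largest and 8 with the smallest ratio at 20 tags or more, the 5 largest closed and promoter regions at 10 tags or more, the 5 genes with the largest and smallest sums among those with 4 regions, and listed genes; some of these genes are not reported here. Other genes, the motifs CCCNNGGG and CAAGGGA and the 4 regions with more of all factors in Ebf1-KO were chosen after values were seen. Alternatives were TMM, a pseudocount of 5, at least 10 tags, intervals in place of 2-fold, and promoters by distance. The 2 columns of a table that no labelled sample matches were not used. RefSeq windows come from GRCm38.p6.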

Additional observations from a re-analysis of the deposited data

How the results depend on the processing

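With 1 pooled column a time, precision rests on tag counts alone, and closed regions with few tags are the least certain. The 70 regions at least 2-fold higher became 40 under TMM, 17 with a pseudocount of 5, 43 of the 676 regions with at least 10 tags, and 329 when the interval of the tag ratio had to lie above 1. The 7 lower regions became 20 under TMM, 0 with a pseudocount of 5, 0 with at least 10 tags, 20 by the interval and 96 by the interval under TMM. The median log2 ratio of all regions (0.26) became -0.0076 under TMM, 0.20 with a pseudocount of 5 and 0.30 with at least 10 tags. The TMM factors came from these same regions, so a TMM median near 0 follows from the method. For closed regions (0.23) it became 0.0060, 0.13 and 0.94 in that order, the last over 10 regions, and for open regions (0.26) -0.0095, 0.21 and 0.30. The limit of 10 tags was set on the larger of the 6 h and 0 h values, so a region could pass through its 6 h value alone. The closed median of 0.94 is therefore partly made by this filter, and no conclusion is drawn from it. For promoters (0.24) it became -0.043 under TMM. The interval under TMM gave 104 higher regions, and leaving out overlapping regions gave 70 and 7 of 1152; both were added after seeing the data. Of 115 single values of named regions and genes, 9 moved past their counting interval under TMM and 1 with a pseudocount of 5, and none changed sign past 2-fold. Leaving out a library was not run, since no library has a column of its own. No paired analysis was possible because the libraries of each time were deposited as 1 pooled column.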
